A study of Mus musculus with 18 samples.

Results

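The 6 genes described here encode the mouse Fc gamma receptors and the first steps of their signalling chain, out of 49315 genes counted. They were chosen by name: Fcgr1, Fcgr2b, Fcgr3, Fcgr4, Fcer1g and Syk. Counts on them were compared in bone marrow-derived macrophages (BMDMs) from mice labelled WT or KO, in 18 RNA-seq libraries with 3 biological replicates in each of 6 groups. WT denotes Hdac3 f/f mice, which carry loxP sites around an exon of the histone deacetylase gene Hdac3, and KO denotes M-HDAC3-/- mice, which carry the same floxed allele and Cre recombinase driven from the lysozyme 2 locus (LysM-Cre), both on a C57BL/6J background. The floxed allele was therefore present in both labels, and the Cre in KO alone. BMDMs grown from femoral marrow in L929-conditioned medium were left untreated or cocultured for 45 min with K562 cells, a human leukemia line, then washed and kept for 5 h before RNA isolation. The K562 cells were apoptotic after 15 min of UVB (ACs) or had not been irradiated (NACs).

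Fc gamma receptors bind the constant part of IgG and let macrophages take up antibody-coated particles. FcγRI, FcγRIII and FcγRIV, encoded by Fcgr1, Fcgr3 and Fcgr4, are activating and signal through the FcR gamma chain encoded by Fcer1g, a short dimer with an immunoreceptor tyrosine-based activation motif (ITAM). When Src family kinases phosphorylate the ITAM, the kinase SYK binds it and passes the signal to adaptors, phospholipase C gamma, phosphoinositide 3-kinase and actin regulators. FcγRIIB, encoded by Fcgr2b, is the inhibitory member and carries an immunoreceptor tyrosine-based inhibition motif (ITIM) that recruits the phosphatase SHIP1, the product of Inpp5d.

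All 6 genes lie at the same position in the counted annotation and in GENCODE M21 on GRCm38. On chromosome 1, Fcgr2b (ENSMUSG00000026656) spans 170958617 to 170976547 on the reverse strand, Fcgr4 (ENSMUSG00000059089) 171018920 to 171029761 on the forward strand, Fcgr3 (ENSMUSG00000059498) 171051174 to 171064935 and Fcer1g (ENSMUSG00000058715) 171229572 to 171234365, both on the reverse strand. Fcgr1 (ENSMUSG00000015947) lies apart from this cluster, on the reverse strand of chromosome 3 from 96282909 to 96293969. Syk (ENSMUSG00000021457) lies on the forward strand of chromosome 13 from 52583173 to 52648792.

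The signalling motifs are visible in the coding sequence of GENCODE M21. The stretch below from Fcer1g-201 (codons 65 to 79) codes for the ITAM, with the tyrosine codons and the leucine codons that define the motif in capitals. The stretch from Fcgr2b-201 (codons 317 to 322) codes for the ITIM, with its tyrosine codon in capitals. Of the 6 coding sequences, that of Fcer1g was the 1 with a match to the ITAM pattern. The shorter ITIM pattern also matched outside Fcgr2b, 3 times in Fcgr1, 1 time in Fcgr4 and 1 time in Fcer1g.
Fcer1g ITAM coding stretch: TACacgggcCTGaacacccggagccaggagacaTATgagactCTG
Fcgr2b ITIM coding stretch: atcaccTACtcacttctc

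Fcgr2b and Fcgr3 share a nearly identical stretch that bears on how their reads can be counted. The sequences below are 219 bases of coding sequence, codons 93 to 166 of Fcgr2b-201 and codons 88 to 161 of Fcgr3-201, with the 1 position at which they differ in capitals. Their identity over this stretch was 99.54%, and the longest run without a mismatch was 129 bases.
Fcgr2b shared stretch: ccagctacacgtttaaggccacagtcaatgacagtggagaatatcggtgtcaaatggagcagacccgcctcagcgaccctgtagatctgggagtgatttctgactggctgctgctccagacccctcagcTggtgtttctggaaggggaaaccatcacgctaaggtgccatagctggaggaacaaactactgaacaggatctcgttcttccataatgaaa
Fcgr3 shared stretch: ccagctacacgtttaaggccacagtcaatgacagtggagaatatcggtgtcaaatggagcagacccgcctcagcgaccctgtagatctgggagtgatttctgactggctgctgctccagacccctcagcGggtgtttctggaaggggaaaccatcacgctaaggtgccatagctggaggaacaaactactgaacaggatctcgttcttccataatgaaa
Of the 50-base words of all Fcgr3 transcripts, 9.58% (166 of 1733) also occur in Fcgr2b, and of those of Fcgr2b 4.38% occur in Fcgr3 or in other genes. No 150-base word of any of the 6 genes occurs in another gene. The exons of Fcgr2b also overlap those of the gene Gm38204, and the strand setting of the counting is not given in the sources used here. The values of Fcgr2b and Fcgr3 are therefore less certain than those of the other 4 genes, which share no 50-base word with another gene.

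Total counts per library ranged from 4704491 to 26421267, with a median of 16477929, and the shallowest was KO untreated replicate 1. Hdac3 did not separate the labels, at 3.38 to 48.8 CPM in the 9 libraries labelled WT and 4.66 to 74.6 CPM in the 9 labelled KO, so each direction below is that of the labels. These counts cover the whole gene, whereas the loxP sites flank an exon, so they do not test the deletion. CPM are counts relative to the library total, scaled by TMM factors to a common unit. All 10 macrophage markers (Csf1r, Cd68 and Lyz2 among them) were detected in every library, and their summed level was 7179 to 20390 CPM. Of other cells that carry Fc receptors, NK cell markers summed to at most 4.19 CPM and mast cell and basophil markers to at most 8.63 CPM, with Mcpt4 at 0 counts in all 18 libraries. B cell markers summed to 15.1 to 112 CPM and granulocyte markers, led by Ngp, to 222 to 1270 CPM. Libraries also differed in how counts moved with the GC content of genes, and this separated some groups: the Spearman correlation of a library's deviation with GC content was −0.58 to −0.39 in WT untreated, 0.14 to 0.57 in KO untreated and −0.47 to −0.32 in KO with NACs. With a GC and length offset, 5 of 12101 genes were called between the labels untreated, and 0 of 12143 in KO with NACs against untreated (2278 at an unadjusted p under 0.05). Between the labels with ACs the number rose instead, from 461 of 12304 genes without the offset to 1295 with it.

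The members differed more from each other than across groups. Per length, as TPM, which divides counts by gene length and scales each library to the same sum, the median level over the 18 libraries was 2783 for Fcer1g, 495 for Fcgr3, 209 for Fcgr1, 73.9 for Fcgr4, 38.0 for Syk and 17.7 for Fcgr2b. By TPM the shared signalling chain was thus the most abundant of the 6 transcripts, and the inhibitory receptor the least. The length used was all exonic bases of a gene, 5790 for Fcgr2b and 1256 for Fcgr4. Their median counts were 765 and 818, so the distance between these 2 genes in TPM rests largely on that length. Between the lowest and the highest library the CPM of a gene differed by a factor of 3.26 for Fcer1g, 3.60 for Fcgr1, 4.37 for Fcgr3, 4.81 for Fcgr4, 6.65 for Fcgr2b and 7.71 for Syk. In KO untreated replicate 1, the lowest CPM of all 18 libraries was found for Fcgr1 (156), Fcgr3 (175) and Syk (96.3).

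**Figure D1:**
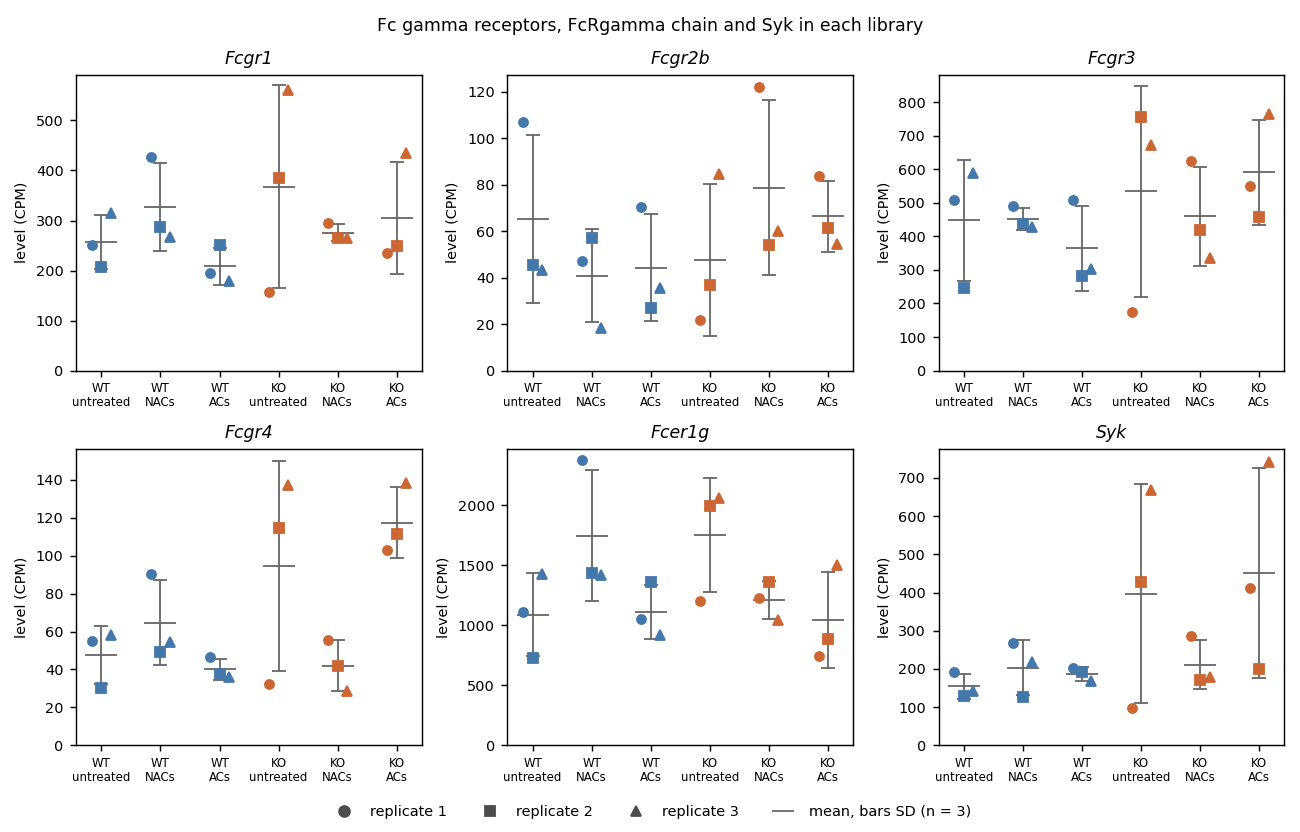
Level of each gene (y axis, CPM) in each of the 18 libraries by group (x axis), with symbols for the replicate, blue for libraries labelled WT and orange for KO, and the mean with SD bars (n = 3). For Fcgr4 the 3 KO libraries with ACs (103 to 138 CPM) lie above the 3 WT libraries with ACs (36.3 to 46.6 CPM) and the 3 KO libraries with NACs (28.8 to 55.8 CPM), whereas for the other genes most groups overlap.

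Fcgr4, the activating receptor for IgG2a and IgG2b, was the 1 member called in any comparison between 2 groups. Its level with ACs was 46.6, 37.5 and 36.3 CPM under the label WT and 103, 111 and 138 CPM under the label KO. Every KO library was above every WT library. The mean was 40.1 ± 5.61 CPM in WT and 118 ± 18.6 CPM in KO (SD, n = 3), and on the log2 scale KO was higher by 1.496 (SE 0.386), a 2.82-fold higher level, with a Benjamini-Hochberg adjusted p of 0.0421 over 12304 genes (edgeR, quasi-likelihood F test). The exact permutation test (two-sided) gave p = 0.1, the smallest it can give with 3 libraries against 3. Of all genes tested 3.75% were called in this comparison, and 1 of the 6 members was. The groups did not overlap for 28.3% of all genes, and for 1 member, Fcgr4. The call depended on single libraries: leaving out KO ACs replicate 2 kept it (edgeR adjusted p = 0.0172), and leaving out each of the other 5 in turn lost it, at 0.0512 without WT ACs replicate 1, 0.0831 without WT ACs replicate 2, 0.177 without WT ACs replicate 3, 0.313 without KO ACs replicate 1 and 0.0546 without KO ACs replicate 3, while the log2 fold change stayed between 1.41 and 1.63. Without KO ACs replicate 1, edgeR called 0 of all 12723 genes, with 1810 at an unadjusted p under 0.05. It was also lost with a replicate block (edgeR adjusted p = 0.0644). The macrophage markers summed to 9960 to 11770 CPM in the WT and 15430 to 17660 CPM in the KO libraries with ACs, with 0 of 10 called by edgeR and 2 at an unadjusted p under 0.05. The granulocyte markers summed to 375 to 963 CPM in WT and 443 to 765 CPM in KO, with 1 of 9 tested (Elane) called lower. The mitochondrial share of counts also did not overlap, at 0.341% to 0.480% in WT and 0.494% to 1.19% in KO with ACs. The part of these in the difference of Fcgr4 was not tested, and a change in the share of cells cannot be told apart from a change in RNA per cell.

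In macrophages labelled KO, Fcgr4 also differed between ACs and NACs. With NACs it had 55.8, 41.7 and 28.8 CPM, and all 3 libraries with ACs were above these. The log2 fold change was 1.49 (SE 0.383, edgeR adjusted p = 0.0183; exact permutation test, p = 0.1), where 7.38% of 12244 genes were called and 1 of the 6 members. The groups did not overlap for 29.4% of all genes, and for Fcgr4 of the members. Without 1 library the adjusted p ran from 0.00101 to 0.153, and the call held without KO NACs replicate 1 and without KO ACs replicate 2 (0.0257 and 0.00101). It was lost without KO NACs replicate 2 (0.0973), KO NACs replicate 3 (0.153), KO ACs replicate 1 (0.131, where 0 of 12689 genes were called and 2169 had an unadjusted p under 0.05) or KO ACs replicate 3 (0.0546), and with all 18 libraries in one fit (0.0711). Beside this difference, fibroblast markers summed to 7.83 to 46.4 CPM with NACs and 82.1 to 234 CPM with ACs, and 3 of the 7 tested (Col1a2, Col3a1 and Pdgfrb) were called higher. Granulocyte markers summed to 290.2 to 916 CPM with NACs and 443 to 765 CPM with ACs. Of these 10, 1 (Ltf) was called higher, while the median log2 fold change of the 10 was −0.46. The part of these in it was not tested. This comparison and the preceding one share the KO libraries with ACs.

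In macrophages labelled WT, Fcgr4 had 90.2, 49.2 and 54.5 CPM with NACs, and the 3 libraries with ACs lay below these. The log2 fold change of ACs against NACs was −0.65 (SE 0.342, edgeR adjusted p = 0.898; exact permutation test, p = 0.1), and −0.35 without WT NACs replicate 1. Fcgr1 and Fcer1g also had every WT library with ACs below every WT library with NACs, with log2 fold changes of −0.61 (SE 0.339) and −0.61 (SE 0.361) and an adjusted p of 0.898 each by edgeR. Without WT NACs replicate 1 they were −0.39 and −0.35, and with a GC and length offset that of Fcer1g was −0.30. Such a separation in CPM held for 3 of the 6 members and for 10.4% of all 11844 genes. In TPM, where the share of all genes was not computed, these WT groups overlapped for Fcgr1 and Fcer1g and did not for Fcgr4. By edgeR 0 of 6 members and 0 of all genes (0.0%) were called here. At an unadjusted p under 0.05 there were 0 members and 493 genes, and DESeq2 called 0 of each.

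The difference between labels was then tested across treatments. The log2 difference of KO minus WT for Fcgr4 was 0.91 (SE 0.518) untreated, −0.58 (SE 0.341) with NACs and 1.496 with ACs, so that it differed by 2.08 between ACs and NACs. Without WT NACs replicate 1 the difference with NACs was −0.23. In a model over all 18 libraries, the interaction of label and treatment had an adjusted p of 0.0270 for Fcgr4 (edgeR, 2 coefficients). It was called for 1 of the 6 members, where 27.7% of 13662 genes were called. The interaction remained called in 7 of 7 alternatives that kept all libraries, with adjusted p from 0.00871 to 0.0423, and in 11 of 18 fits without 1 library. It was lost without WT untreated replicate 1 (0.0510), WT untreated replicate 2 (0.0538), WT NACs replicate 1 (0.117), WT ACs replicate 3 (0.0519), KO untreated replicate 2 (0.0522), KO NACs replicate 2 (0.0604) or KO NACs replicate 3 (0.0793). For the other members the adjusted p was 0.183 for Fcer1g, 0.249 for Syk, 0.261 for Fcgr2b, 0.409 for Fcgr1 and 0.653 for Fcgr3 (edgeR).

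**Figure D2:**
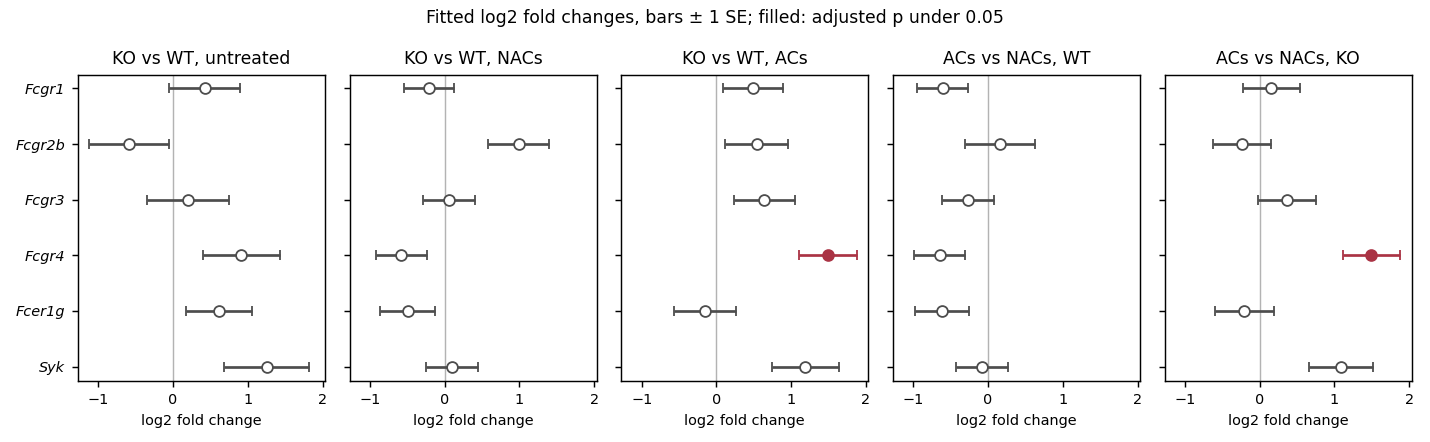
Fitted log2 fold change (x axis) of the 6 genes (y axis) between the labels in each treatment and between ACs and NACs in each label, with bars of 1 SE. The filled points, adjusted p under 0.05, are Fcgr4 with ACs (1.496) and Fcgr4 between ACs and NACs in KO (1.49), and Syk follows at 1.19 and 1.09 in the same comparisons.

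In untreated macrophages Fcgr4 had 55.1, 30.04 and 58.1 CPM under the label WT and 32.2, 114.5 and 138 CPM under the label KO. KO untreated replicate 1 lay within the WT range and the other 2 KO libraries above it. No member was called between the labels by edgeR (adjusted p = 0.209 for Fcgr4), where 11.6% of 12101 genes were. At an unadjusted p under 0.05 there was 1 member, Syk, beside 4499 of all 12101 genes, and DESeq2 called 0 members. Without KO untreated replicate 1, Fcgr4 (log2 fold change 1.25, adjusted p = 0.00408) and Syk (1.65, adjusted p = 0.000292) were both called by edgeR, in a fit that called 46.3% of 12714 genes. With NACs, KO against WT, 0 of 6 members and 0.864% of 11923 genes were called. There Fcgr2b had a log2 fold change of 0.99 (edgeR adjusted p = 0.163) and the 1 unadjusted p under 0.05 among the members, and DESeq2 called 0 of the 6. The value of Fcgr2b was 0.50 without KO NACs replicate 1, 1.42 without WT NACs replicate 2 and 0.58 with a GC and length offset.

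In the comparisons with untreated macrophages no member was called by edgeR. With ACs the share of all genes called was 0.0% in WT (1551 of 12199 genes at an unadjusted p under 0.05, and 0 called by DESeq2) and 0.0% in KO (1761 of 12136, and 5 called by DESeq2), and with NACs it was 8.52% in WT and 6.54% in KO. None of the 6 had an unadjusted p under 0.05 in these 4 comparisons, and DESeq2 called 0 members. The log2 fold change of Fcgr4 in KO was −0.98 (SE 0.504) with NACs and 0.45 (SE 0.509) with ACs, against the same untreated libraries. Without 1 library the value with ACs ran from 0.042 to 0.77. Without KO untreated replicate 1, Fcgr4 and Syk were called in KO with NACs against untreated (−1.43, adjusted p = 0.00616, and −1.20, adjusted p = 0.0122, by edgeR), in a fit that called 35.5% of 12493 genes.

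**Figure D3:**
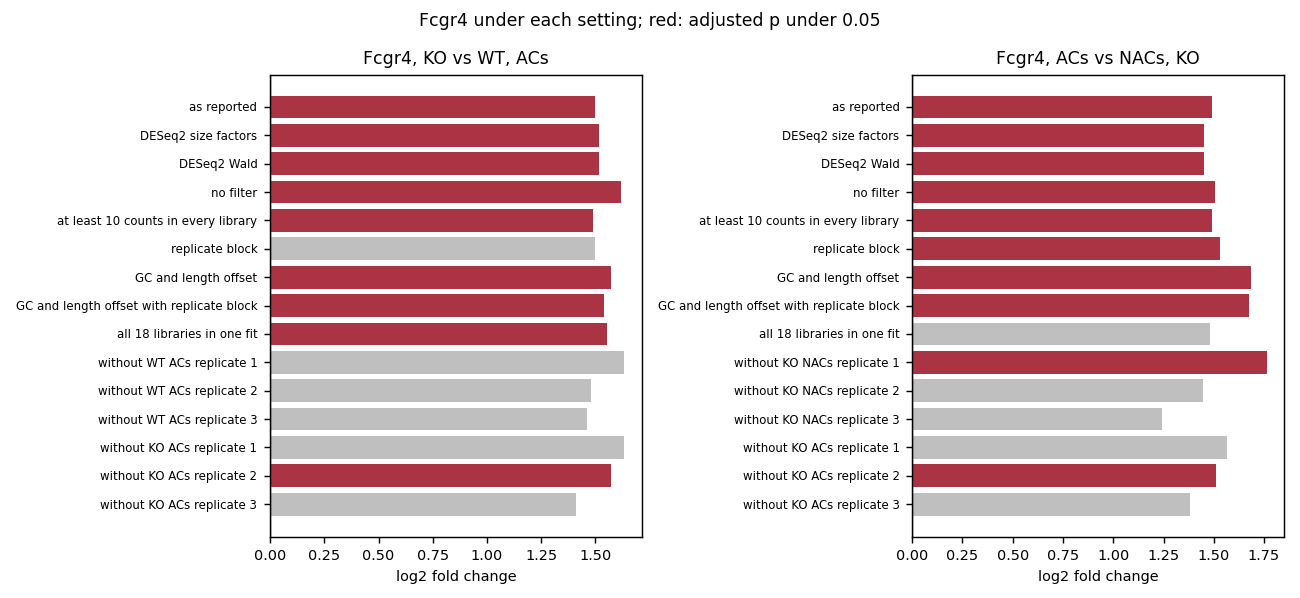
Log2 fold change of Fcgr4 (x axis) under each setting and with each library left out (y axis), for KO against WT with ACs and for ACs against NACs in KO. The red bars have an adjusted p under 0.05, and the values lie between 1.41 and 1.63 and between 1.24 and 1.76.

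Syk, the kinase that binds the phosphorylated ITAM, had the widest range of CPM of the 6 genes, a factor of 7.71 over the 18 libraries. Its lowest CPM (96.3) was in KO untreated replicate 1, the shallowest library, and the next lowest was 126 (WT NACs replicate 2). Its rank above Fcgr2b rests on that shallowest library. With ACs Syk had 203, 192 and 168 CPM under the label WT and 411, 199 and 743 CPM under the label KO, so that KO replicate 2 fell within the WT range. In TPM KO replicate 2 (48.9) lay above all WT libraries with ACs (36.8 to 38.0), and how many of all genes separate in TPM was not computed. The log2 fold change was 1.19 (SE 0.447, edgeR adjusted p = 0.116; exact permutation test, p = 0.2). Against NACs in KO, at 285, 170 and 180 CPM, it was 1.09 (SE 0.424, edgeR adjusted p = 0.107). Untreated, Syk had 192, 130 and 142 CPM in WT and 96.3, 428 and 668 CPM in KO, a log2 fold change of 1.25 (SE 0.570, edgeR adjusted p = 0.129). Without KO ACs replicate 2 it was called with ACs between the labels (1.61, edgeR adjusted p = 0.0226) and between ACs and NACs in KO (1.43, edgeR adjusted p = 0.00362), in fits that called 13.3% and 23.9% of all genes. Without KO ACs replicate 3 these values were 0.67 and 0.56, and untreated it was 0.78 without KO untreated replicate 3, none of them called. With an offset fitted to the GC content and length of genes, the log2 fold change between the labels was 0.57 with ACs and 0.34 untreated, and that between ACs and NACs in KO was 0.37.

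Fcer1g, the signalling chain, had 1052, 1359 and 918 CPM in WT and 748, 886 and 1504 CPM in KO with ACs. These ranges overlapped, and the log2 fold change was −0.15 (SE 0.413, edgeR adjusted p = 0.846). With NACs it had 2383, 1439 and 1424 CPM in WT and 1229, 1363 and 1048 CPM in KO, all below WT, a log2 fold change of −0.50 (SE 0.368, edgeR adjusted p = 0.376; exact permutation test, p = 0.1). It was −0.077 with a GC and length offset and −0.18 without WT NACs replicate 1. Non-overlap of this kind in CPM was found for 1 of 6 members and 27.0% of all genes. In TPM the order of Fcer1g with NACs was reversed. Every KO library (2955 to 3183) was above every WT library (2647 to 2933), and how many of all genes separate in TPM was not computed. In KO its mean was 1754 ± 477 CPM untreated and 1046 ± 403 CPM with ACs (SD, n = 3), and these groups overlapped.

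Fcgr3, the low-affinity activating receptor and the most abundant of the 4 receptors, had 508, 282 and 302 CPM in WT and 551, 459 and 764 CPM in KO with ACs. One WT library reached the KO range in CPM, and none did in TPM (at most 498 in WT and at least 606 in KO). The log2 fold change was 0.64 (SE 0.408, edgeR adjusted p = 0.344), with 0.97 without WT ACs replicate 1. Between the labels it was 0.06 with NACs and 0.20 untreated. Fcgr1, the high-affinity receptor, had 196, 251 and 179 CPM in WT and 234, 248 and 435 CPM in KO with ACs, overlapping groups with a log2 fold change of 0.49 (SE 0.403, edgeR adjusted p = 0.473), which was 0.12 with a GC and length offset and 0.20 without KO ACs replicate 3. In TPM its groups with ACs did not overlap, at 129 to 180 in WT and 209 to 274 in KO. How many of all genes separate in TPM was not computed. In CPM 28.3% did between these groups, so the TPM values of Fcgr1 and Fcgr3 are a description. Its highest single CPM was 562, in KO untreated replicate 3.

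Fcgr2b, the inhibitory receptor, ranged from 18.3 CPM in WT NACs replicate 3 to 122 CPM in KO NACs replicate 1. With ACs it had 70.5, 27.0 and 35.5 CPM in WT and 83.6, 61.3 and 54.5 CPM in KO, which overlapped, and the log2 fold change was 0.54 (SE 0.427, edgeR adjusted p = 0.453), with 1.06 without WT ACs replicate 1 and 0.30 without WT ACs replicate 2. With NACs it had 47.1, 56.9 and 18.3 CPM in WT and 122, 54.0 and 60.2 CPM in KO. Untreated, the log2 fold change was −0.59 (SE 0.536), and it was 0.071 with a GC and length offset, −0.044 without WT untreated replicate 1 and −1.18 without KO untreated replicate 3. Neither difference passed the test.

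In the order of group means by CPM, neighbouring groups overlapped for every gene, with 1 exception. For Fcgr4 the order was KO ACs (118 CPM), KO untreated (94.8), WT NACs (64.7), WT untreated (47.8), KO NACs (42.1) and WT ACs (40.1). For Syk it was KO ACs (451), KO untreated (397), KO NACs (212), WT NACs (204), WT ACs (187) and WT untreated (155). The highest mean was in KO ACs for Fcgr3 (591), in KO untreated for Fcgr1 (368) and Fcer1g (1754), and in KO NACs for Fcgr2b (78.7). The exception was Fcer1g, for which WT NACs (1749 CPM) did not overlap KO NACs (1213 CPM), the next in order. By TPM this separation was reversed, with every KO library with NACs above every WT library with NACs. The highest mean TPM was in KO NACs for Fcgr1 (236) and Fcer1g (3053). For Fcgr4, WT NACs (71.1 TPM) came below WT untreated (77.6) and KO NACs (73.0). For Syk, WT NACs had the lowest mean (30.3 TPM).

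The make-up of the receptor transcripts was taken as the share of each receptor among Fcgr1, Fcgr2b, Fcgr3 and Fcgr4, per length within each library, as a description with no test. Fcgr2b, the inhibitory receptor, made up 0.7995% to 4.09% of the 4 receptors. This depends on its exonic length of 5790 bases, and by counts without length it made up 2.39% to 11.6%. Per length its group mean was 2.88% ± 1.34 (SD, n = 3) in WT untreated, 1.58% ± 0.796 in WT with NACs and 2.24% ± 0.662 in WT with ACs. In KO it was 1.64% ± 0.612 untreated, 3.16% ± 0.7495 with NACs and 2.15% ± 0.796 with ACs. The 2 labels thus overlapped with ACs, and the KO libraries with NACs (2.41% to 3.91%) lay just above the WT libraries with NACs (0.7995% to 2.39%).

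The share of Fcgr4, looked at after its level was seen, was 15.2% to 19.3% in KO with ACs and 13.4% to 15.0% in KO untreated, KO untreated replicate 1 included (13.5%). It was 6.94% to 8.60% in KO with NACs. In WT it was 8.99% to 9.71% untreated, 9.53% to 13.6% with NACs and 8.87% to 10.4% with ACs. KO untreated replicate 1, whose level of Fcgr4 was low with those of Fcgr1 and Fcgr3, was therefore like the other 2 KO untreated libraries in this share. Fcgr3 made up the largest part in every library, from 52.8% to 70.1%.

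**Figure D4:**
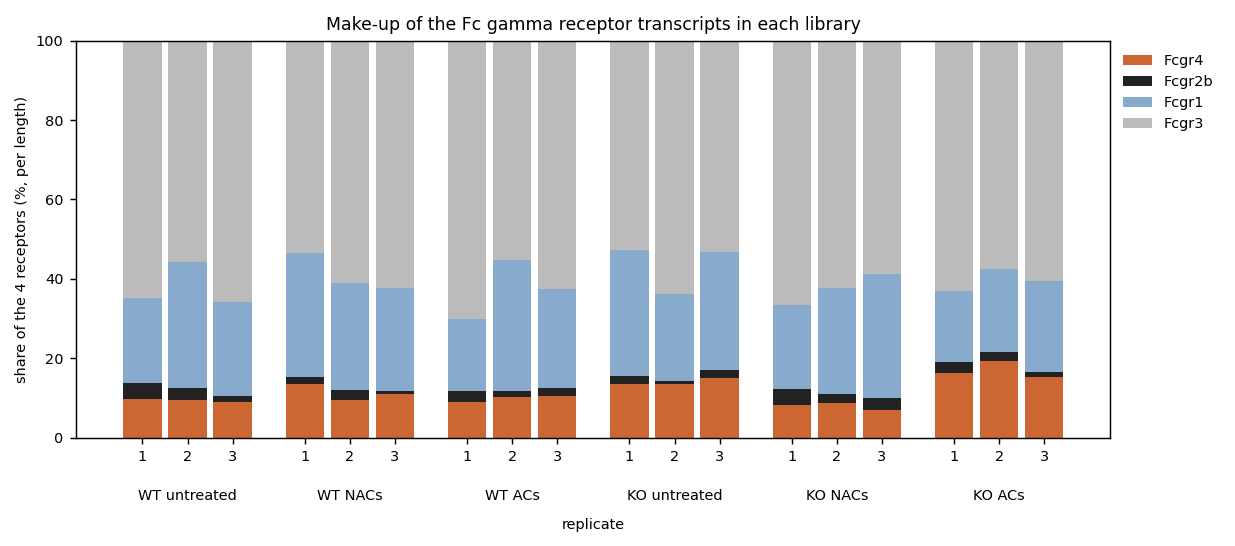
Share of each of the 4 Fc gamma receptors (y axis, %, per length) in each library, by group and replicate (x axis). The orange Fcgr4 part is 15.2% to 19.3% in the KO libraries with ACs and 6.94% to 8.60% in those with NACs, and the black Fcgr2b part is at most 4.09%.

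Across the 18 libraries, which differ in depth and in their GC trend, the levels of the members went together to unequal degrees. As a description, the Pearson correlation of log2(CPM + 1) was 0.83 between Fcgr4 and Syk, 0.80 between Fcgr4 and Fcgr3, 0.76 between Fcgr1 and Fcer1g, and 0.75 between Fcgr1 and Fcgr3. For Fcgr2b it was 0.53 with Fcgr3, with which it shares sequence, and −0.15 with Fcer1g. The correlation with the GC trend of the library was 0.64 for Fcer1g, 0.59 for Syk, 0.53 for Fcgr4, 0.51 for Fcgr1, 0.21 for Fcgr3 and −0.45 for Fcgr2b. The GC content of the longest transcript was 48.2% for Fcgr4 and 54.3% for Syk, where the median gene had 49.8%.

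Among all 13662 genes kept, the patterns most like that of Fcgr4 over the 18 libraries were those of mt-Nd1 (r = 0.93), Akr1b8 (0.92), Gpr89 (0.92), Gas7 (0.92) and Gde1 (0.91). For Syk they included Csf1r (0.98), the receptor of the macrophage growth factor CSF1, Elmo2 (0.97), Tmem43 (0.96) and Rapgef1 (0.95). For Fcgr3 they were Gsto1 (0.94), Ctsb (0.92), Stom (0.92), Gng5 (0.90) and Alkbh3 (0.89), and for Fcer1g Yipf1 (0.94), Rpl10 (0.93), Dpp7 (0.92), Snrpb (0.92) and Ndufa9 (0.91). For Fcgr1 they were Coq9 (0.92), Faap24 (0.92), Gm8797 (0.91), Suds3 (0.91) and Hfe (0.91), and for Fcgr2b Pla2g7 (0.93), Fam32a (0.92), Mcfd2 (0.90), Aoah (0.90) and Lpcat2 (0.89). No member was among the 5 genes most like another member.

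The other genes of the pathway were a list of 60, of which 54 could be tested between 2 groups. With ACs, 0 of the 54 were called between the labels by edgeR, by which 3.75% of all genes were. At an unadjusted p under 0.05 there were 18, beside 2988 of all 12304 genes. DESeq2 called 6, where it called 11.2% of all genes. The list's median log2 fold change was 0.52, beside −0.0062 for all genes. Untreated, edgeR called 5 (9.26% of the list, where 11.6% of all genes were) and DESeq2 16, where it called 27.1% of all genes. Of the 5, 3 were higher and 2 lower in libraries labelled KO. The higher ones were the kinase gene Src (from 6.98 ± 3.82 to 33.7 ± 3.27 CPM; SD, n = 3), Vav1, which encodes a guanine nucleotide exchange factor (log2 fold change 1.69), and Fcgrt, the neonatal Fc receptor (1.53). The lower ones were Cdc42, a GTPase of phagocytic cup formation (−2.03), and Ptprc, the phosphatase CD45 that regulates Src family kinases (−1.65). The adjusted p of these 5 genes ran from 0.0218 to 0.0410 (edgeR). Each was called without KO untreated replicate 1. Leaving out any of the other 5 libraries lost each call, except that Src kept it without KO untreated replicate 2. With a GC and length offset, with or without the block, none of the 5 was called. Over the alternatives that kept all libraries, their log2 fold changes fell in size to as little as 1.20 (Src), 0.73 (Vav1) and 0.64 (Fcgrt). Those of Cdc42 and Ptprc fell in size to −0.97 and −0.47. The calls of Vav1 and Fcgrt were also lost with the replicate block, and that of Fcgrt without a filter on low counts. Of the 10 macrophage markers, Lyz2 and Mrc1 were called lower in the same comparison, while the median log2 fold change of the 10 was 0.081. The part of these markers was not tested.

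Between ACs and NACs in KO, 2 of 54 pathway genes were called by edgeR (3.70% of the list, beside 7.38% of all genes), both higher with ACs, and 6 by DESeq2, which called 11.7% of all genes. They were Inpp5d, the phosphatase SHIP1 that acts with FcγRIIB (from 187 ± 13.5 to 525 ± 324 CPM; log2 fold change 1.49, edgeR adjusted p = 0.0320), and Plcg1, a phospholipase C (1.40, edgeR adjusted p = 0.0463). Both calls held without KO ACs replicate 2 and were lost without any of the other 5 libraries, with the GC and length offset, with or without the block, and with all 18 libraries in one fit. That of Plcg1 was also lost with DESeq2 size factors. Over the alternatives that kept all libraries, the log2 fold changes fell to as little as 0.70 (Inpp5d) and 0.71 (Plcg1). The list's median was 0.41 and that of all genes 0.09. In WT 0 of 54 were called between ACs and NACs by edgeR, with 6 at an unadjusted p under 0.05 (beside 493 of all 11844 genes) and 0 called by DESeq2.

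Against untreated libraries with NACs, 2 of 54 were called in WT (3.70% of the list, beside 8.52% of all genes), Src higher (1.47, edgeR adjusted p = 0.0278) and Lcp2, the adaptor SLP-76, lower (−1.40, edgeR adjusted p = 0.0295). In KO 3 were called (5.56%, beside 6.54% of all genes), Cdc42 (1.96) and Ptprc (1.57) higher and Src (−1.54) lower, with adjusted p from 0.0353 to 0.0459 (edgeR). These are 3 of the genes that differed between the labels untreated, and both comparisons share the KO untreated libraries. In WT both calls held without WT untreated replicate 3 or WT NACs replicate 2, and in KO all 3 held without KO untreated replicate 1. Without any other library they were lost, and so they were with the GC and length offset, with or without the block. A single fit of all 18 libraries ended both WT calls as well, and the 3 KO calls were lost with DESeq2 size factors and with the replicate block. Over the alternatives that kept all libraries, the WT values fell in size to as little as 0.61 (Src) and −0.93 (Lcp2). The KO values fell in size to 1.04 (Cdc42), 0.63 (Ptprc) and −0.78 (Src). Of the 10 macrophage markers, Lyz2 and Mrc1 were called higher in this KO comparison, while the median log2 fold change of the 10 was −0.17. In the WT comparison 1 of 4 tested B cell markers (Cd79b) and 1 of 3 tested mast cell and basophil markers (Gata2) were called higher. Their part was not tested. With ACs against untreated, 0 of 54 were called by edgeR in either label and 0 by DESeq2. At an unadjusted p under 0.05 there were 3 in WT (beside 1551 of all 12199 genes) and 15 in KO (beside 1761 of 12136). With NACs edgeR called 0 between the labels, with 14 at an unadjusted p under 0.05, beside 2891 of all 11923 genes. DESeq2 called 1 there, where it called 3.70% of all genes. With NACs against untreated DESeq2 called 7 in WT and 11 in KO, beside 12.5% and 18.8% of all genes. For the interaction of label and treatment 13 of 55 (23.6%) were called, where 27.7% of all genes were.

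Of the other Fc receptors on the list, Fcgrt (215 to 1203 CPM) and Trim21 (0.252 to 11.6 CPM), a cytosolic antibody receptor, could be tested between 2 groups. The other 5, Fcmr, Fcer1a, Fcer2a, Fcrl5 and Fcrla, each at most 1.64 CPM, could not, and of these Fcmr was tested in the interaction, where it was not called. In the interaction Fcgrt (edgeR adjusted p = 0.0137) and Trim21 (0.0339) were called, where 27.7% of all genes were. Tyrobp, the ITAM chain DAP12 used by other myeloid receptors, had 515 to 1526 CPM. Of the NADPH oxidase that produces superoxide in the phagosome, the subunit genes Cybb, Cyba, Ncf1 and Ncf4 were each at 134 CPM or more in all 18 libraries and were not called in any of the 9 comparisons between 2 groups.

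The promoter of Fcgr4, shown because its level differed between groups, is taken from RefSeq on GRCm38.p6 as the 300 bases around its start, at chr1:171018676-171018975 on the forward strand. Capitals mark matches on either strand to GAGGAA, the core bound by the macrophage factor PU.1, and to the interferon-stimulated response element core, a pair of TTTC boxes with any 2 bases between them, which were searched beside TTCNNNGAA, the STAT element.
Fcgr4 promoter: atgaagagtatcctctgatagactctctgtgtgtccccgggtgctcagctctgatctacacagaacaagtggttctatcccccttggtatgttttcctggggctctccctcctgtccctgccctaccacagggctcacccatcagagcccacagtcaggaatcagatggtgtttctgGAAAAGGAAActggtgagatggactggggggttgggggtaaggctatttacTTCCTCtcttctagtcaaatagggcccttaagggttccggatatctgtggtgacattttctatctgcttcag
Of the 8 promoters of the 6 genes, 5 held GAGGAA (the 2 of Fcgr3 overlap and hold the same site), as did 28.3% of all 32851 promoters of this length. The interferon response core was found in 1 (Fcgr4) and in 3.44% of all promoters, and TTCNNNGAA in 1 (Fcgr1) and in 8.30%. A match of letters is a description and not a bound site.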

How the data were processed

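RNA of 18 macrophage libraries was sequenced as read pairs. Per the labels the authors used Trimmomatic 0.36, STAR 2.5.2b and featureCounts of Subread 1.5.2 on GRCm38, and the deposited values are whole counts per gene, not normalized. The strand setting and the handling of reads that fit several genes are not given in the sources used here. Groups were taken from the labels. They do not say that replicate numbers mark the same animals in different groups.

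For every pair of groups, a model of the 6 libraries concerned was fitted (R 4.3.3, edgeR 4.0.16, filterByExpr with minimum count 10 and minimum total count 15, TMM factors, glmQLFit and glmQLFTest with robust dispersions, Benjamini-Hochberg adjustment over all genes tested, threshold 0.05). The interaction was fitted over all libraries. The SE of a log2 fold change is its size divided by the square root of the F statistic. CPM used TMM factors over the 18 libraries, and TPM the deposited gene lengths. Exact permutation tests used log2(CPM + 1). P-values of the fits set a difference between groups against the spread between these libraries. Those of the permutation tests set it against all regroupings of the 6 libraries.

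The genes named are the 6 members, up to 4 called pathway genes with the largest change per comparison of 2 groups (all called where 5 or fewer, which added Fcgrt after its values were seen), and the 5 genes most correlated with each member. Marker genes, the other Fc receptors, Tyrobp and the NADPH oxidase genes were named outside this rule, after their values were seen. A few genes are not reported here. The members and lists were chosen with earlier results of these data known. Alternatives were the size factors and the Wald test of DESeq2 1.42.0, no filter, 10 counts in every library, 1 fit of all libraries, the replicate number as a block, a GC and length offset (mgcv 1.9.3), both together, and each library left out. The edgeR test and the DESeq2 Wald test were checked on simulated counts modelled on KO against WT with ACs, without a GC trend. The interaction, the other comparisons and the other alternatives were not checked in this way.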

Additional observations from a re-analysis of the deposited data

Results flagged for a closer look

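For Fcgr4 the interaction of label and treatment was called, though not in every fit without 1 library. By edgeR it held in 11 of those 18 fits, and the adjusted p reached 0.117. With all libraries its adjusted p was 0.0270 by edgeR's quasi-likelihood test over 18 libraries, by which 27.7% of all genes and 1 of the 6 members were called. ACs against NACs gave a log2 fold change of −0.65 in libraries labelled WT, with 3 of 3 below (adjusted p = 0.898, and from −0.80 to −0.35 without 1 library), and 1.49 in those labelled KO, with 3 of 3 above. The difference between these 2 values was tested only within the interaction over all 3 treatments. No explanation was tested. Single outlying libraries were not tested for.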

How the results depend on the processing

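The number of members called stayed the same in 77 results with all libraries kept and changed in 2. It was 0 for KO against WT with ACs under the replicate block and 0 for ACs against NACs in KO with all 18 libraries in one fit. Without 1 library it ran from 0 to 2 for KO against WT with ACs, for ACs against NACs in KO, for KO against WT untreated and for NACs against untreated in KO, and from 0 to 1 for the interaction. By counts without length, the mean share of Fcgr2b was 8.18%, 4.57% and 6.51% in WT (untreated, NACs, ACs) and 4.78%, 8.92% and 6.495% in KO.

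The labels do not say whether replicate numbers mark the same animals, and the numbers were not taken as pairs: the correlation of same-numbered deviations ran from −0.33 to 0.46 over 27 pairs, and no comparison had every pair above 0.1. Own-number libraries were the best match for at most 4 of 6 libraries (ACs against NACs in KO). The block moved the number of all genes called from 904 to 1400 for ACs against NACs in KO, from 1015 to 1784 for NACs against untreated in WT, from 0 to 53 for ACs against untreated in WT, from 103 to 217 for KO against WT with NACs and from 794 to 0 for NACs against untreated in KO. Under the replicate block the log2 fold change of Fcgr3 with NACs against untreated was 0.040 in WT and 0.10 in KO, both turned from below 0, and no member call changed beside that of Fcgr4 with ACs.

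Values that were not called changed sign, and the cause was not tested. With the GC and length offset, and with it and the replicate block, they were −0.11 and −0.18 (Fcgr1) and 0.071 and 0.037 (Fcgr2b) for KO against WT untreated, −0.070 and −0.011 (Fcgr2b) and 0.076 and 0.046 (Syk) for ACs against NACs in WT, −0.20 and −0.22 (Fcgr1) for ACs against NACs in KO, −0.073 and −0.091 (Syk) for ACs against untreated in WT, 0.026 and 0.070 (Fcgr3) and −0.12 and −0.094 (Syk) for NACs against untreated in WT, and 0.18 and 0.23 (Fcgr1) and 0.015 and 0.12 (Syk) for NACs against untreated in KO, where the block with the offset also gave 0.070 (Fcgr3) and 0.028 (Fcer1g). Fcer1g for ACs against untreated in WT was 0.059 with DESeq2 size factors, 0.059 with DESeq2's Wald test, 0.046 with 10 counts in every library and 0.025 in one fit, and Fcgr3 for NACs against untreated in WT was 0.052, 0.052 and 0.013 with the first 2 and the last.

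Without 1 library, KO against WT ran from −0.45 to 0.10 for Fcer1g with ACs, from −0.29 to 0.059 (Fcgr1), −0.24 to 0.25 (Fcgr3) and −0.20 to 0.38 (Syk) with NACs, and from −0.20 to 0.54 for Fcgr3 untreated. ACs against NACs ran from −0.39 to 0.49 (Fcgr2b) and −0.32 to 0.15 (Syk) in WT and from −0.16 to 0.29 (Fcgr1) and −0.48 to 0.24 (Fcgr2b) in KO. ACs against untreated ran from −0.20 to 0.27 for Fcer1g in WT and from −0.50 to 0.26 (Fcgr1), −0.14 to 0.62 (Fcgr3) and −0.20 to 0.85 (Syk) in KO. NACs against untreated ran from −0.28 to 0.15 for Fcgr3 in WT and from −0.62 to 0.083 (Fcgr1) and −0.50 to 0.35 (Fcgr3) in KO.

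The number of all genes called moved more: 373 to 1373 for KO against WT with ACs and 252 to 1431 for ACs against NACs in KO with all libraries kept, 0 to 3308 untreated, 0 to 575 with NACs, and 950 to 5171 for the interaction. Without 1 library the ranges were 0 to 1693, 0 to 3013, 0 to 5887, 0 to 3121 and 1303 to 4599 in the same order. Depth was least in KO untreated replicate 1, with 128 counts on Fcgr4.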
